A study of Mus musculus with 6 samples.

Results

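Wnt ligands, their receptors and their antagonists were measured in the epidermis of newborn mice whose keratinocytes carried an always-active form of AhR, the ligand-dependent factor through which cells sense dioxins and related compounds. The genes were those with a probe whose RefSeq accession belongs to a mouse symbol that starts with Wnt, Fzd, Dkk or Sfrp followed by a digit. Lrp5, Lrp6, Ror1, Ror2, Ryk, Axin1, Axin2, Rspo1 to Rspo4, Lgr4, Lgr6, Znrf3, Rnf43, Nkd1 and Nkd2 were added by name. The rule takes 55 symbols of the annotation table, and 52 of them were found on the array, through 70 probes, among 18217 genes that could be named. No probe matched Lrp5, Lrp6 or Fzd10os, an RNA antisense to Fzd10, so these were not analysed here.

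The 3 WT and 3 AhRCA samples were total RNA from unsorted epidermis at postnatal day 0, on a strain background labelled mix. AhRCA mice expressed the active receptor from the keratin 14 promoter, which drives expression in basal keratinocytes, and carried no other labelled allele or treatment. The controls are labelled WT. Each of the 3 samplings paired 1 AhRCA mouse with 1 WT littermate. Whether the AhRCA mice came from 1 founder line is not given in the sources used here.

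Each sample had its own 1-colour Agilent array, with 56.2% to 61.3% of spots well above background and 0 saturated; the number of arrays limits the precision. Values are log2 intensities after subtraction of the array's 75th percentile, so that 0 stands for that percentile. They compare arrays for 1 probe, not genes with each other. Slide 1 held the WT and AhRCA arrays of replicates 1 and 2, and slide 2 those of replicate 3. The mice of slide 2 were male by their Xist and Ddx3y transcripts and the others female, so that slide, sex and litter 3 coincided and cannot be told apart, but were balanced between the genotypes. Cyp1a1, the classical AhR target, stood between -3.96 and -2.18 in WT and between 3.32 and 5.04 in AhRCA. Of 7 keratinocyte markers 7 were measured, with summed levels of 1507 to 1661 in WT and 1433 to 1733 in AhRCA (in multiples of the array's 75th percentile).

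Wnt ligands are secreted lipid-modified glycoproteins that bind Frizzled receptors together with the co-receptors Lrp5 and Lrp6. This keeps beta-catenin from being degraded and lets it act with TCF and LEF factors on target genes, while Ror and Ryk receptors transmit other Wnt signals. R-spondins bind Lgr receptors and protect Frizzleds from the ligases Znrf3 and Rnf43, and Dkk and Sfrp proteins act outside the cell to modulate or block the signal. In skin, Wnt signalling is known for the induction of hair follicles and for the upkeep of follicle and basal stem cells.

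Of the 52 genes on the array, 40 were tested, because a probe stood well above background on 3 or more of the 6 arrays, for a difference between AhRCA and WT. In AhRCA epidermis 3 of them fell, the receptor gene Fzd4, the ligand gene Wnt5b and the secreted glycoprotein gene Dkk3, and 0 rose (limma, Benjamini-Hochberg adjusted p under 0.05 over 12824 genes). Among all genes tested 1.65% were lower and 0.530% higher by the same rule, and 2.18% changed in either direction. At an unadjusted p under 0.05, 10 of the 40 were lower and 5 higher, beside 7.57% and 4.62% of all genes. The median log2 fold change was -0.10 for the 40 genes and 0.0013 for all genes tested. When the littermate pairs entered the fit as a block, 497 genes changed (3.88%, with 2.81% lower) in place of 279, and Fzd4, Wnt5b and Dkk3 were again the 3 that passed here. Fzd4 entered the test through its 3 WT arrays alone, so its entry and its lower level are linked. With Fzd4 left out, 2 genes were lower in the unblocked fit.

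The AhRCA and WT values did not overlap for 18 of the 40 genes, 11 of them lower in AhRCA (27.5%) and 7 higher (17.5%). Among all genes tested the groups did not overlap in 16.4%, with 8.84% lower and 7.52% higher. Within the 3 littermate pairs, 17 of the 40 genes were lower in AhRCA in every pair and 10 were higher in every pair, beside 20.1% and 19.7% of 12821 genes. In these bulk samples fewer cells of a type and less RNA per cell cannot be told apart.

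**Figure D1:**
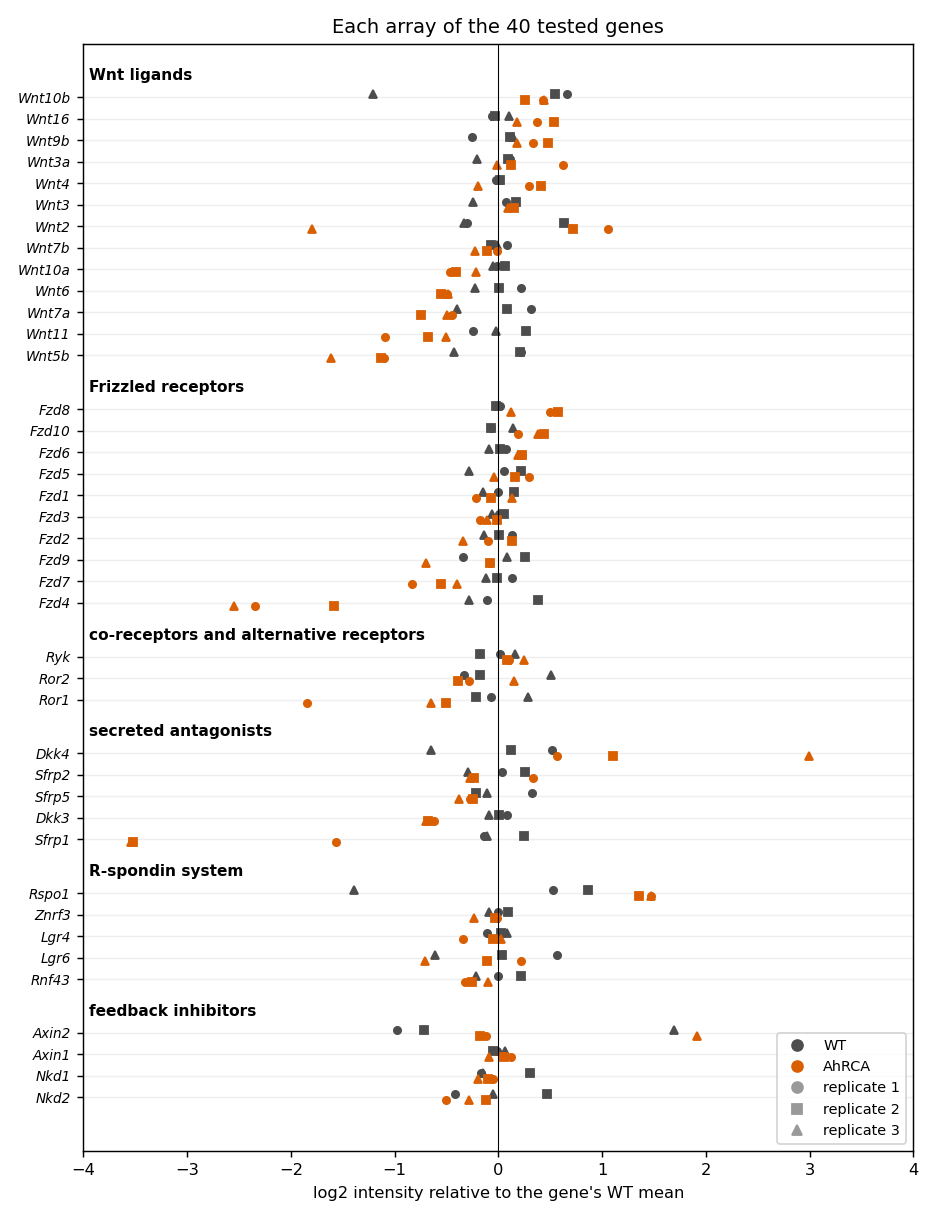
Normalized log2 intensity of each array relative to the gene's WT mean (x axis) for the 40 tested genes by role (rows); dark points are WT, orange points AhRCA, and symbols mark replicates 1 to 3. Orange points lie clear of the dark ones on the left for Fzd4, Wnt5b, Dkk3 and Sfrp1, and the triangles of replicate 3 stand apart for Axin2, Rspo1, Wnt10b and Dkk4.

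Markers of several skin cell populations also moved with genotype. Of 14 tested markers of hair follicle epithelium 10 had negative fold changes and 1 fell (Krt75), and their summed level was 498 to 695 in WT and 348 to 432 in AhRCA. That sum rests mostly on bright keratin genes. Krt71, Krt25, Krt27, Krt35 and Krt75 had log2 fold changes of -0.86 to -1.42, and Krt17 had -0.093. The 4 positive markers were Gata3 (0.19), Shh (0.16), Foxn1 (0.12) and Lhx2 (0.059). All 5 tested sebaceous gland markers fell (summed level 13.3 to 18.4 in WT, 3.63 to 4.23 in AhRCA; Mc5r was above background on no array). Of 4 tested Merkel cell markers 3 fell (1.38 to 2.19 against 0.408 to 0.618; Atoh1 was above background on no array). Of 6 dermal papilla markers 2 were tested and 1 fell (Vcan, log2 fold change -1.38). Their summed level was 0.256 to 0.614 in WT and 0.176 to 0.193 in AhRCA. The highest WT sum rests mostly on Alpl in WT replicate 2 (-1.19, beside -3.63 and -3.44 in the other WT arrays). Sox2 and Fgf7 were above background on no array. Of 7 tested markers of dermal fibroblasts 0 passed (limma), and Pdgfra was above background on no array. Their summed level, mostly Dcn and Postn, was 31.0 to 39.1 in WT and 35.9 to 40.1 in AhRCA. The markers split in direction, with 5 positive and 2 negative fold changes. Col1a2 had -1.19 (adjusted p = 0.0622, limma) and Postn 0.47 (adjusted p = 0.143, limma), each without overlap between the groups. Of 3 tested melanocyte markers 0 passed, and of 3 tested immune cell markers 1 fell (Cd207). Cd207 was well above background on 3 WT and 0 AhRCA arrays, so its entry into the test and its lower level are linked. The other immune cell markers, Ptprc and Cd3e, had log2 fold changes of 0.40 and -0.17. The part of these populations in the values below was not tested.

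Among the Wnt ligands, Wnt5b, which signals mainly without beta-catenin, was the 1 gene of 13 tested that fell. Its values were -1.11, -1.12 and -1.75 in WT and -2.43, -2.46 and -2.94 in AhRCA. Every AhRCA array lay below every WT array, and in both genotypes the replicate 3 array was the lowest. The log2 fold change was -1.28 ± 0.23 (SE, n = 3 per group, 2.43-fold lower, adjusted p = 0.0475, limma), and the littermate differences were -1.32, -1.34 and -1.19. A second Wnt5b probe, dimmer and not used in the test, differed by -1.48. The call is near the threshold: it was lost under quantile normalization (adjusted p = 0.0853), median scaling (0.102), normexp background correction (0.0515), with no filter on dim probes (0.103) and when any array but WT replicate 3 was left out (up to 0.175). On slide 1 alone Wnt5b passed (-1.33, adjusted p = 0.0278), and the other 39 genes did not.

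The ligand genes Wnt6, Wnt10a, Wnt11 and Wnt7a lay lower on every AhRCA array than on any WT array without passing the test. Wnt11 read -0.55, -0.04 and -0.33 in WT and -1.40, -0.98 and -0.81 in AhRCA, a difference of -0.76 ± 0.20 (adjusted p = 0.148, limma, and 0.0517 with pairs as a block). Wnt6 read 2.60, 2.39 and 2.15 in WT and 1.89, 1.83 and 1.89 in AhRCA (-0.51 ± 0.14, adjusted p = 0.150, limma). Both genes have smaller differences in pair 3 (-0.48 and -0.26) than in the pairs of slide 1.

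Wnt10a, a ligand required for the renewal of follicle and epidermal cells, read 3.72, 3.80 and 3.69 in WT and 3.27, 3.33 and 3.52 in AhRCA (-0.36 ± 0.11, adjusted p = 0.221, limma). Wnt7a read -1.39, -1.62 and -2.10 in WT and -2.16, -2.45 and -2.20 in AhRCA (-0.56 ± 0.20, adjusted p = 0.306, limma). For Wnt7a the gap between the groups is narrow, since the lowest WT array and the highest AhRCA array differ by less than the spread within WT. Wnt16 stood the other way, with -0.23, -0.21 and -0.07 in WT and 0.20, 0.36 and 0.01 in AhRCA (0.36 ± 0.13, adjusted p = 0.300, limma).

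Wnt10b, an early ligand of the hair placode, read -0.82, -0.94 and -2.69 in WT and -1.05, -1.23 and -1.04 in AhRCA. One array, WT replicate 3, stood far below the other 5. The log2 fold change of 0.38 (95% confidence interval -0.77 to 1.53) turned to -0.23 without that array and was -0.26 on slide 1. The remaining tested ligands, Wnt2, Wnt3, Wnt3a, Wnt4, Wnt7b and Wnt9b, had log2 fold changes between -0.11 and 0.33, and adjusted p of 0.481 or more (limma). For Wnt3, Wnt4 and Wnt7b the 95% confidence intervals lay between -0.38 and 0.58. The littermate differences of Wnt2 were 1.37, 0.084 and -1.47, and its probe was well above background on 1 WT and 2 AhRCA arrays.

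Among the 10 Frizzled genes, all of which were tested, Fzd4 fell and the other 9 did not pass. Fzd4 encodes the receptor for norrin and for several Wnts. It read -3.78, -3.28 and -3.94 in WT and -6.01, -5.25 and -6.21 in AhRCA. It was well above background on all 3 WT arrays and on 0 of 3 AhRCA arrays, the only gene of the 52 with that pattern. The AhRCA level is therefore not resolved. Each AhRCA array was also set to the lowest signal of a probe well above background, or to the probe's own value where higher. Fzd4 was then 2.50-fold lower in AhRCA. That is not a strict minimum, since the lowest signal comes from other probes and normexp background correction gave a smaller difference. The fitted log2 fold change, from measured means of -3.67 and -5.82, was -2.16 ± 0.29 (adjusted p = 0.0195, limma), and the littermate differences were -2.23, -1.98 and -2.27. With normexp background correction it was -0.65 (adjusted p = 0.0533), and the call was also lost on slide 1 alone (0.0882), with no filter on dim probes (0.0509) and when WT replicate 1 or 2, or AhRCA replicate 1 or 3, was left out (up to 0.0734). Fzd4 was not tested where probes had to be above background on all 6 arrays. Fzd4 is known from endothelium, and 0 of the 4 endothelial markers, Pecam1, Cdh5, Kdr and Tek, were above background on any array. Fzd4 itself was dim, and which cells gave its signal was not tested.

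Fzd7, a receptor for several Wnts, read -0.14, -0.28 and -0.39 in WT and -1.11, -0.83 and -0.67 in AhRCA (-0.59 ± 0.15, adjusted p = 0.121, limma), without overlap. A second, dimmer Fzd7 probe differed by -0.33, with overlap between the groups. With the probes averaged Fzd7 differed by -0.46 (adjusted p = 0.483, limma). Fzd10 and Fzd8 read higher in AhRCA, without overlap. The values of Fzd10 were 4.12, 4.12 and 4.33 in WT and 4.38, 4.63 and 4.58 in AhRCA (0.34 ± 0.12, adjusted p = 0.317, limma). Those of Fzd8 were -3.13, -3.17 and -3.15 in WT and -2.66, -2.58 and -3.03 in AhRCA (0.40 ± 0.14, adjusted p = 0.314, limma). Fzd10 passed when the probes of a gene were averaged (0.55, adjusted p = 0.0477, limma); its second probe differed by 0.76. Fzd6, a receptor of planar polarity that orients hair follicles, had a log2 fold change of 0.22 (95% confidence interval -0.024 to 0.46), and Fzd1, Fzd2, Fzd3, Fzd5 and Fzd9 lay between -0.29 and 0.14. The pairs of Fzd9 did not share a direction, with 0.26, -0.34 and -0.78.

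**Figure D2:**
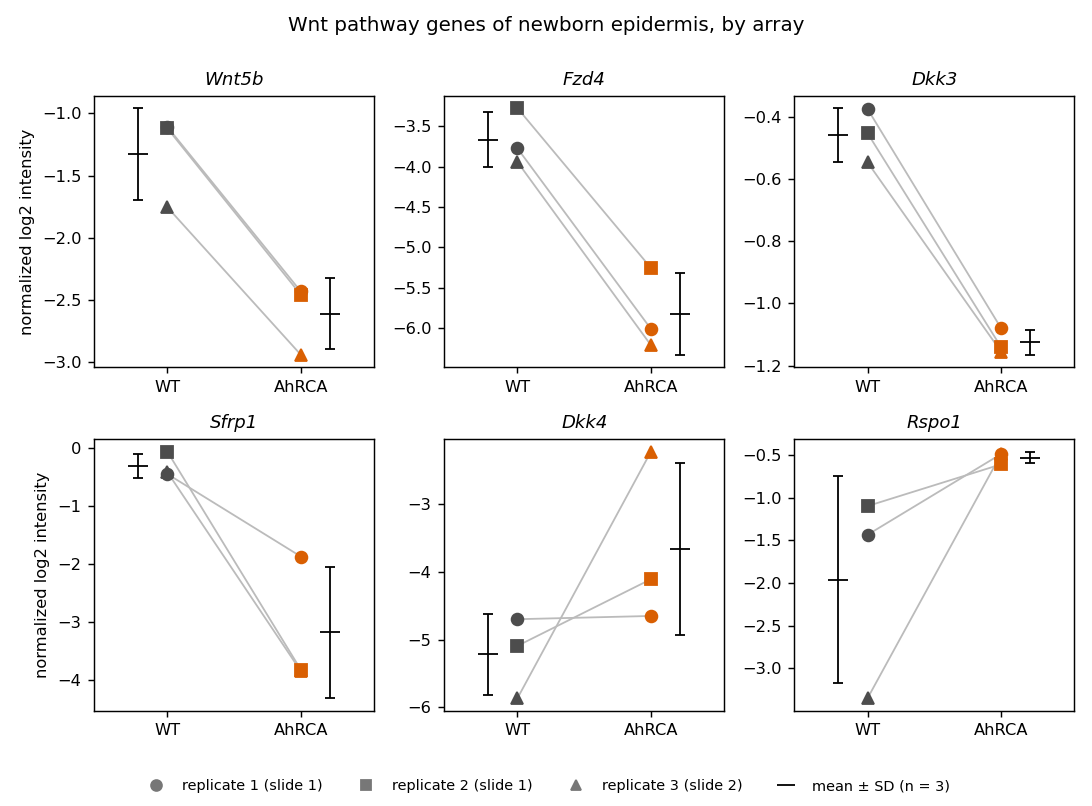
Normalized log2 intensity (y axis, own scale in each panel) in WT and AhRCA for 6 genes; lines join littermates, symbols mark replicates, and bars give the mean ± SD of 3 arrays. The 3 lines of Wnt5b, Fzd4 and Dkk3 run nearly parallel, whereas for Sfrp1, Dkk4 and Rspo1 the pairs differ in slope.

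The promoter windows of the genes that fell are printed to show which motifs of the transgenic receptor and of the pathway's own factors they hold. They are from RefSeq (GRCm38.p6) and run from 250 bases before to 50 after each annotated start; Dkk3 has no entry. Capitals mark the AhR core GCGTG and the TCF/LEF core ATCAAAG on either strand (as CACGC and CTTTGAT on the other). The array does not tell which of the 3 annotated starts of Wnt5b was used.
Fzd4, chr7:89404116-89404415, plus strand: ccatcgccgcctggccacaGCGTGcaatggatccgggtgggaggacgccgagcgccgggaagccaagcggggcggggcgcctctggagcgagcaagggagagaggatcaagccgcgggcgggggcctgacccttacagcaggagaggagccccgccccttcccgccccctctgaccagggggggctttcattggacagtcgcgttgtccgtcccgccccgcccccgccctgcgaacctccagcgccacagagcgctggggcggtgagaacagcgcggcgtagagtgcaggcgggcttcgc
Wnt5b, most upstream start, chr6:119544298-119544597, minus strand: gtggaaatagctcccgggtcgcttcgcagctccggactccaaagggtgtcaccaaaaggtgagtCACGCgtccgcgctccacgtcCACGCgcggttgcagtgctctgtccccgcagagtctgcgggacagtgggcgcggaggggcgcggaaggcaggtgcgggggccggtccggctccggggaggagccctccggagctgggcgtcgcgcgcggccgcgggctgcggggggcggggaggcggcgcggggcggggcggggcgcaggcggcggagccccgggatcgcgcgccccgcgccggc
Wnt5b, middle start, chr6:119467162-119467461, minus strand: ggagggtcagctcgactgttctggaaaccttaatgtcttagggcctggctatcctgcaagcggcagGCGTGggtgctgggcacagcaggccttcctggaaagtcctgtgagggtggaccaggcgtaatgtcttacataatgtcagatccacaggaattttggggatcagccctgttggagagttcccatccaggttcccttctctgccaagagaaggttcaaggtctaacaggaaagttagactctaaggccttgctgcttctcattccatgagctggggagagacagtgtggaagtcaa
Wnt5b, most downstream start, chr6:119449337-119449636, minus strand: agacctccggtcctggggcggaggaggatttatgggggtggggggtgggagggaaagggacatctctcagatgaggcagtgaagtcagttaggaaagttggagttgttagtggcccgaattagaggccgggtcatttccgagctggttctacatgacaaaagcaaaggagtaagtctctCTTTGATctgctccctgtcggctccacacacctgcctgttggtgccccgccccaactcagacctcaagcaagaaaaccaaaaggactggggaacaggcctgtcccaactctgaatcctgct
GCGTG occurs in the Fzd4 window and in the upstream and middle Wnt5b windows, and ATCAAAG in the downstream one. Over all 32851 windows of the table, 32.4% held GCGTG and 3.73% ATCAAAG; of 40 windows of 36 genes described here, 22 (55%) held GCGTG and 2 held ATCAAAG. The G and C content of the 40 windows ranged from 44.3% to 86.3%. It was not matched to that of all windows. Whether 55% beside 32.4% exceeds what base composition alone gives was therefore not tested. A match is a description of letters and shows no binding.

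Of the receptors outside the Frizzled family, Ror1, Ror2 and Ryk were tested and 0 passed (limma; 1 had an unadjusted p under 0.05). Ror1, a receptor tyrosine kinase-like protein that binds Wnt5a, read -4.45, -4.59 and -4.09 in WT and -6.23, -4.89 and -5.03 in AhRCA (-1.0 ± 0.36, adjusted p = 0.314, limma). It was well above background on all 3 WT arrays and on 1 AhRCA array, and its values are near the detection limit. With normexp background correction the difference was -0.24. Ryk had a log2 fold change of 0.14 (95% confidence interval -0.16 to 0.45) and Ror2 of -0.17 (-0.78 to 0.44).

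Among the secreted antagonists 5 of 8 genes were tested, and Dkk3 fell. Dkk3 is a dickkopf family member that, unlike Dkk1, is not known as a ligand of Lrp5 and Lrp6. It read -0.37, -0.45 and -0.55 in WT and -1.08, -1.14 and -1.16 in AhRCA. The arrays of each genotype lay close together and the groups were well separated. The log2 fold change was -0.67 ± 0.10 (1.59-fold lower, adjusted p = 0.0293, limma), with littermate differences of -0.70, -0.69 and -0.61. The call was lost under median scaling (adjusted p = 0.140), on slide 1 alone (0.0654), with no filter on dim probes (0.0738) and when any array but WT replicate 3 was left out (up to 0.145).

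Sfrp1, a secreted Frizzled-related protein that binds Wnts, had the largest difference of the 40 genes and just missed the threshold. It read -0.45, -0.06 and -0.42 in WT and -1.87, -3.83 and -3.85 in AhRCA. All 3 AhRCA arrays were below WT, but AhRCA replicate 1 stood well above the other two. On the log2 scale the difference was -2.87 ± 0.53 (7.33-fold lower, adjusted p = 0.0515, limma, and 0.0607 with pairs as a block). It passed with normexp background correction (-2.03, adjusted p = 0.0176), median scaling (-2.84, 0.0471), probes well above background on all 6 arrays (0.0454) and without AhRCA replicate 1 (-3.53, 0.00265). A second, dimmer Sfrp1 probe, above background on 2 WT and 0 AhRCA arrays, differed by -1.51.

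Dkk4, an inhibitor made in hair placodes, read -4.70, -5.09 and -5.86 in WT and -4.65, -4.11 and -2.22 in AhRCA. The groups touch within 0.05 at replicate 1, and AhRCA replicate 3 stood far above the rest. Dkk4 did not pass (1.56 ± 0.64, adjusted p = 0.396, limma); its difference was 0.52 on slide 1 and 3.64 in the pair of slide 2. Sfrp2 and Sfrp5, further Frizzled-related proteins, had log2 fold changes of -0.055 and -0.30. For Sfrp5 all AhRCA arrays lay below WT (littermate differences -0.60, -0.028 and -0.26), and for Sfrp2 the pairs pointed both ways.

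In the R-spondin system 5 of 8 genes were tested and 0 passed (limma), and 1 had an unadjusted p under 0.05. The R-spondin receptor Lgr5 is not among these 8. It fell (-0.83, adjusted p = 0.0199, limma) and is given below with the other pathway genes. Rspo1, a secreted enhancer of Wnt signals, read -1.43, -1.10 and -3.35 in WT and -0.49, -0.61 and -0.49 in AhRCA. The AhRCA arrays lay close together above all WT arrays, while WT replicate 3 stood far below the other WT arrays. The fitted difference was 1.43 ± 0.55 (adjusted p = 0.356, limma), with 0.72 on slide 1 and 2.87 in the pair of slide 2, and 0.74 without WT replicate 3.

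Lgr6, a receptor that marks stem cells of the upper follicle, read -0.96, -1.49 and -2.14 in WT and -1.31, -1.64 and -2.24 in AhRCA. It was lower in AhRCA in each of the 3 pairs, by 0.10 to 0.35, a difference smaller than the spread between pairs (-0.20 ± 0.35, adjusted p = 0.999, limma). With the littermate pairs as a block, which takes out that spread, the standard error of Lgr6 was 0.092 (adjusted p = 0.380, limma). Its paralogue Lgr4 had -0.12 (95% confidence interval -0.44 to 0.20), and the ligases Rnf43 and Znrf3, which remove Frizzleds from the cell surface, had -0.22 (-0.56 to 0.12) and -0.094 (-0.37 to 0.18).

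Of the 4 intracellular feedback inhibitors 4 were tested and 0 passed (limma; 0 had an unadjusted p under 0.05). Axin2, a scaffold of beta-catenin degradation and a widely used target gene of the pathway, read -2.41, -2.15 and 0.26 in WT and -1.55, -1.61 and 0.48 in AhRCA. It was higher in AhRCA in all 3 pairs, by 0.86, 0.54 and 0.22, but the replicate 3 arrays of both genotypes stood far above the rest. The log2 fold change was 0.54 ± 0.86 (95% confidence interval -1.51 to 2.59, adjusted p = 0.999, limma) and 0.70 on slide 1 (adjusted p = 0.0968). That standard error includes the shift of replicate 3. For the same 0.54 it was 0.15 with the littermate pairs as a block (adjusted p = 0.157, limma). With the slide as a block it was 0.14 (adjusted p = 0.107, limma). Nkd2, which binds Dishevelled, read 0.07, 0.95 and 0.43 in WT and -0.02, 0.37 and 0.20 in AhRCA (-0.30 ± 0.24, adjusted p = 0.853, limma). Nkd1 and Axin1 had log2 fold changes of -0.11 and 0.027.

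**Figure D3:**
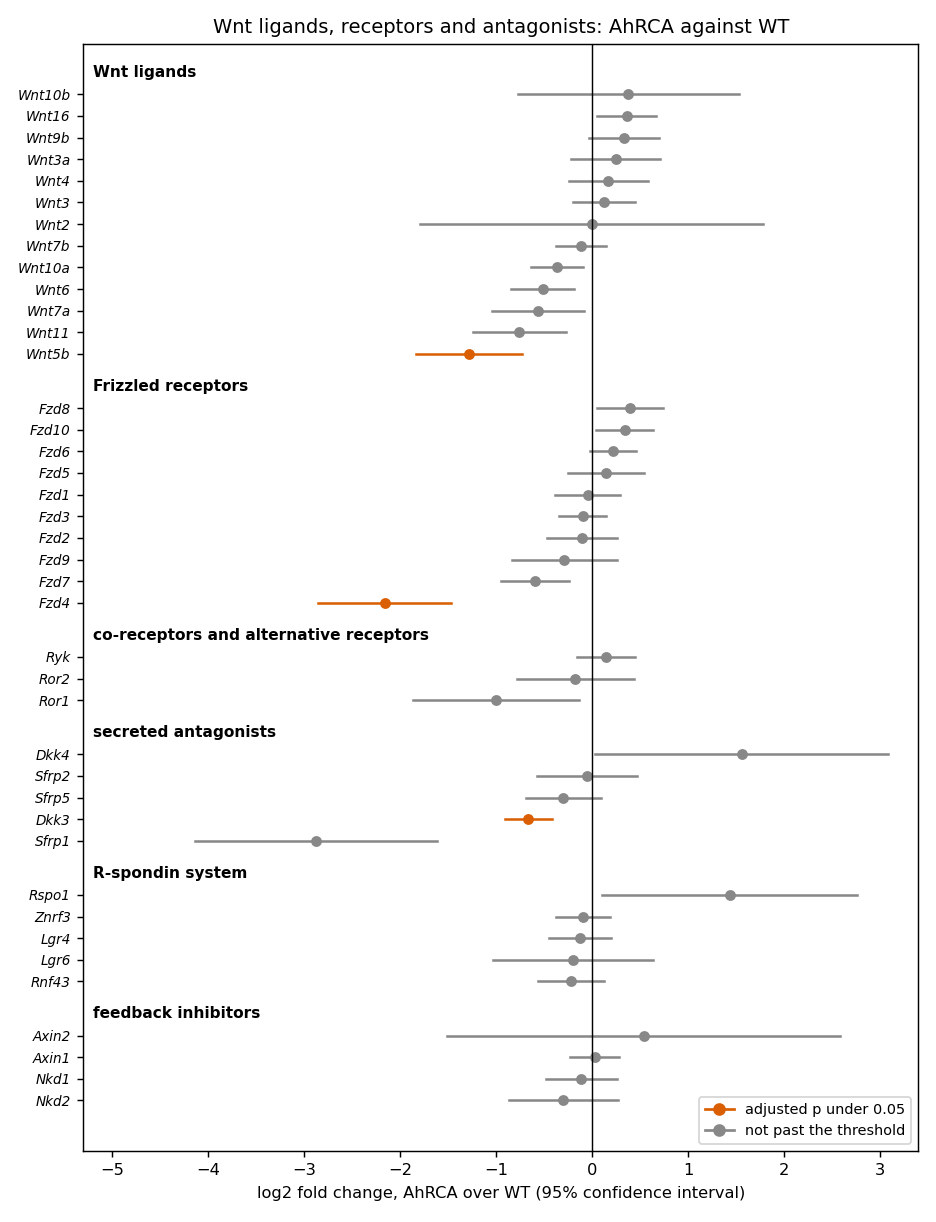
Log2 fold change of AhRCA over WT (x axis) with its 95% confidence interval for the 40 tested genes by role (rows); orange marks an adjusted p under 0.05. The orange genes are Wnt5b, Fzd4 and Dkk3, and the intervals of Axin2, Wnt2 and Dkk4 are the widest.

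Some of these genes stood apart between the slides in both genotypes. In a fit with both terms, chosen after the values of Axin2 were seen, 4 of the 40 genes differed between slide 2 and slide 1 (limma, adjusted p under 0.05), beside 14.5% of 12821 genes (6.47% higher on slide 2). Axin2 was higher on slide 2 by 2.30 ± 0.14 (SE, 4.94-fold, adjusted p = 0.00387) and Ror2 by 0.62 (adjusted p = 0.0279). Lgr6 was lower there by a log2 difference of -0.84 (adjusted p = 0.0426) and Wnt5b by -0.57 (adjusted p = 0.0194). Slide, litter and sex cannot be told apart in these values. The genotype difference differed between the slides for 0 of the 40 genes (limma interaction, adjusted p under 0.05), beside 1 of 12821 genes (0.00780%). Slide 2 held 1 array per genotype, so this term rests on single arrays there. The absence of a call therefore does not show that the genotype difference was the same on both slides.

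**Figure D4:**
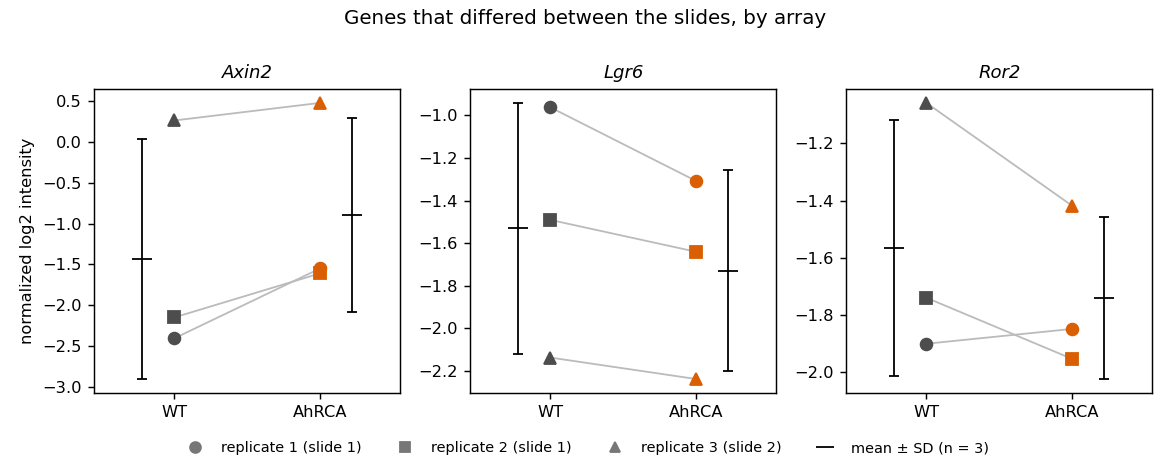
Normalized log2 intensity (y axis, own scale in each panel) of Axin2, Lgr6 and Ror2 in WT and AhRCA; lines join littermates, triangles are the arrays of slide 2, and bars give the mean ± SD of 3 arrays. For Axin2 both triangles lie at 0.26 or above and the other 4 arrays at -1.55 or below, and for Lgr6 the triangles are the lowest.

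The other 12 genes of the rule were not tested. Wnt1, Wnt2b, Wnt8a, Dkk2, Sfrp4, Rspo2, Rspo3 and Rspo4 were well above background on no array. Wnt9a was above background on 2 WT arrays, Wnt5a and Wnt8b on 1 WT array each, and Dkk1 on 1 AhRCA array. For Wnt9a the detected probe read -4.67, -4.47 and -4.97 in WT and -5.36, -6.45 and -6.19 in AhRCA, close to the detection limit.

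Of 64 other genes of the pathway 61 were on the array and 58 were tested. Of these 1 fell and 0 rose (limma), beside 1.65% and 0.530% of all genes tested. At an unadjusted p under 0.05 (limma), 6 were higher and 3 lower, beside 4.62% and 7.57% of all genes. With the slide as a block, an alternative added after the values were seen for these genes, 2 were higher (Fgf20, adjusted p = 0.0446, and Celsr1, 0.0462) and 2 lower (Lgr5 and Tle2, 0.0429), beside 1.29% and 2.91% of all genes (limma). With the littermate pairs as a block, Lgr5 alone passed. In the unblocked fit the gene that fell was Lgr5, an R-spondin receptor, Wnt target and follicle stem cell marker. It read 0.97, 1.07 and 0.93 in WT and 0.02, 0.24 and 0.21 in AhRCA (-0.83 ± 0.11, adjusted p = 0.0199, limma). The median of the 58 genes was 0.02.

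In the core of the beta-catenin pathway 0 genes passed (limma). Ctnnb1, which encodes beta-catenin, had a log2 fold change of 0.032 (95% confidence interval -0.22 to 0.28). Wls, which carries Wnts to the cell surface, had 0.040 (-0.26 to 0.34) and Porcn, which attaches their lipid, 0.29 (-0.059 to 0.65). The nuclear partners of beta-catenin Lef1 and Tcf7 had 0.18 (-0.50 to 0.87) and -0.18 (-0.41 to 0.053). Of 15 genes of the destruction complex and signal transducers 0 passed (limma; 2 higher at an unadjusted p under 0.05, Amer1 with 0.45 and Csnk1e with 0.29). Among the nuclear factors the corepressor gene Tle2 had -0.57 ± 0.13 (adjusted p = 0.104, limma).

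Of 9 tested target genes, Fgf20, a placode growth factor, read -3.69, -3.52 and -3.65 in WT and -3.14, -3.03 and -3.21 in AhRCA (0.49 ± 0.11, adjusted p = 0.0872, limma). Myc had 0.32, Sp5 0.27 and Bambi -0.39, each without overlap between the groups and without passing the test. The 9 target genes, Lgr5 included, had 5 positive and 4 negative fold changes. Among 10 planar polarity genes Prickle2 had -0.75 ± 0.18 (adjusted p = 0.109, limma) and Celsr1 0.47 (adjusted p = 0.274). Of the further inhibitors 9 were tested and 0 passed (limma), with Tpbg at 0.37, Sostdc1 at 0.25 and Notum, which removes the lipid of Wnts, at -0.51.

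**Figure D5:**
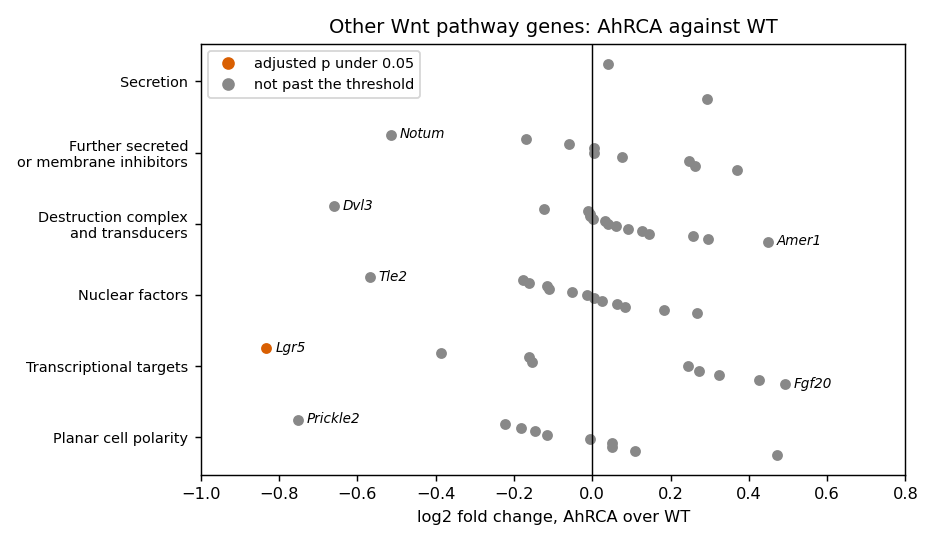
Log2 fold change of AhRCA over WT (x axis) of 58 other Wnt pathway genes, each a point, by group (rows); orange marks an adjusted p under 0.05. Lgr5 at -0.83 is the orange point, and the other points lie between -0.75 and 0.49.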

How the data were processed

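The scanner files hold spot intensities, per the file headers written by Feature Extraction 10.7.3.1 with background already subtracted. RNA was labelled with Cy3 per the labels' protocols. The authors' deposited table holds log2 values, which followed the scanner values of each array plus a constant (slope 1) and are centred on each probe's median over the 6 arrays (column medians -0.071 to 0.0827); it served as an alternative.

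Control spots (1639 of 45018) and 56 to 94 outlier spots per array were left out. Values were log2 processed intensity minus the array's 75th percentile, and replicate spots were averaged. The files hold no symbols: unversioned RefSeq accessions were matched to a GRCm38.p6 table, which named 26690 of 41174 probes (0 with several symbols). Probes were kept where 3 or more of 6 arrays stood well above background, and the brightest stood for its gene. Of 11 genes described here with more than 1 kept probe, Fzd3, Fzd5, Lgr4 and Nkd1 had probes that disagreed in sign. No fit dropped or imputed a value of these genes.

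Genotypes were compared with limma 3.58.1 (lmFit, eBayes, 2 group means, prior degrees of freedom 2.625), two-sided, with Benjamini-Hochberg adjustment over 12824 genes and a threshold of 0.05; the fit was tested on simulated data. Same-numbered arrays were taken as littermates. Their deviations from the group means correlated at 0.337 and 0.372 within slide 1 over 12821 genes, beside 0.150 and 0.194 for unlike numbers on that slide. Pair 3 correlated at 0.55, and its arrays at -0.416 to -0.356 with the others. These values cannot tell litter from slide and sex, so the pairing was accepted on the slide 1 values and the numbering. The normexp alternative (offset 50) used median spot signals, since mean signals are not in the files used here. Genes named with the value of every array are those called, up to 12 more with the largest non-overlapping differences, the smallest p in a role group otherwise without one, those detected in 1 genotype alone, and Axin2, Lgr6 and Wnt10b. Of the other pathway genes, those called and the 2 with the smallest p in a list were to be named. Ctnnb1, Lef1, Notum, Fgf20, Myc, Sp5 and Bambi were added after their values were seen. Members and lists were chosen with earlier results of these data known.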

Additional observations from a re-analysis of the deposited data

How the results depend on the processing

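The count of all genes that changed, 279, was 497 with the replicate block (litter pair), 539 with the slide as a block, 130 on slide 1 alone and 132 with no filter on dim probes, where 18217 genes were tested; it ranged from 62 to 195 when 1 array was left out. Of the genes described here 3 were lower; the count was 1 on slide 1 alone (Wnt5b), 0 with no filter, and 0 to 3 when 1 array was left out. With the replicate block or the slide as a block it was 3, and the block changed no call of these genes. The count of higher genes, 0, was 1 when probes were averaged (Fzd10). On slide 1 alone the values of 29 genes did not overlap, where 2 arrays per group make that easier, in place of 18. The share of all genes in that comparison was not computed, so the 29 cannot be read as a result about these genes. Without WT replicate 3 and on slide 1 the fold change of Wnt10b reversed to -0.23 and -0.26, that of Axin2 reversed to -0.15 without AhRCA replicate 3, and that of Lgr6 to 0.085 and 0.056 without WT replicate 1 or AhRCA replicate 3; the cause was not tested. With 1 array left out they ranged from -0.23 to 0.71, -0.15 to 1.39 and -0.50 to 0.085. Among the 40 genes, quantile normalization, median scaling and normexp turned the sign of 1, Wnt2; over every alternative run, arrays left out included, 14 changed sign in at least 1 (Axin1, Axin2, Fzd1, Fzd2, Fzd3, Fzd5, Lgr4, Lgr6, Nkd1, Ror2, Sfrp2, Wnt10b, Wnt2 and Wnt3), such as Lgr4 (0.44) and Fzd5 (-0.32) with probes averaged. Fzd4, Ror1, Dkk4, Wnt2 and Sfrp5 were not above background on every array, which limits the size of their fold changes.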

Other observations

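Probes of the same gene gave different values for some genes that the test left uncalled. The tested Fzd2 probe differed by -0.10 between AhRCA and WT, whereas a dimmer Fzd2 probe read -2.30, -2.18 and -3.38 in WT and -3.54, -5.19 and -4.80 in AhRCA, a difference of -1.89. With the probes averaged, Fzd2 differed by -1.0 (limma, adjusted p = 0.157). The brightest of 3 Lgr4 probes differed by -0.12, and the dimmest by 1.44, with -4.77 in WT replicate 3 and -0.55 in AhRCA replicate 3 and values between -3.19 and -2.66 on the other 4 arrays. These probes were singled out after their values were seen, and which transcripts they read was not examined.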
